A study of Mus musculus with 44 samples.

Results

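Chemokines are small secreted proteins that direct the movement of white blood cells, and 43 of their genes were followed here in mouse lungs: 32 ligands and 11 receptors. The members were chosen by gene name as chemokine or chemokine receptor genes listed in both deposited expression tables, so all 43 have a value in each of 44 RNA-seq libraries. They are 43 of 24150 genes in the table of a subcutaneous tumour model and 43 of 26940 genes in the table of an intratracheal model. The rule uses gene names and no measured value.

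The study asks what a mutant Timp2 gene and daily recombinant TIMP2 protein do in mice with tumour cells in the lung. TIMP2 protein is secreted and blocks matrix metalloproteinases, and the tumour cells were LL/2-Luc2, a Lewis lung carcinoma line from C57BL/6 mice that carries a luciferase gene. All mice were C57BL6j, and polyA RNA was sequenced from a lung piece of about 3 mm3. Treated mice received 200 µg of recombinant human TIMP2 (rTIMP2) per kg per day into the peritoneum, and control tumour mice received HBSS, a salt solution.

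In the subcutaneous model, wild-type mice carried 1 M (mega) LL/2-Luc2 cells under the skin and the lungs were taken as early metastatic lungs. Its groups were HBSS (n = 5), rTIMP2 begun on day 0 (n = 5) and rTIMP2 begun on day 7, of which there were 4 mice (n = 4). Wild-type (WT) mice and mice carrying a mutant Timp2 (MT2) made up the intratracheal model. Their lungs were tumour-free, or they received 1 M cells through the windpipe with HBSS or with rTIMP2, giving 6 groups with n = 5 each. The series title speaks of loss of function, and the labels do not give the kind of mutation, its zygosity, nor on which day rTIMP2 began in the intratracheal mice. Tumour cells carry their own chemokine and Timp2 genes, so a tumour lung mixes transcripts of the line with those of the host.

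Ligands with a CC motif mainly guide monocytes, eosinophils, lymphocytes and dendritic cells, and many CXC ligands guide neutrophils or lymphocytes. They bind G-protein-coupled receptors on the moving cell, and atypical receptors such as Ackr2 take ligands up and degrade them without classical signalling. In the lung, some chemokines are made at a steady level by epithelium and endothelium, while others are switched on by inflammatory signals, in part through NF-κB.

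Values are the authors' normalized counts, and all log2 fold changes are differences of log2(normalized count + 1), which understate the change of genes with low values. A gene was called when its Benjamini-Hochberg adjusted p from limma was under 0.05 over all genes tested. Errors of means are SDs and those of log2 fold changes are standard errors. The estimated depth was 14.87 to 19.41 M reads per library in the subcutaneous table and 10.68 to 17.14 M in the intratracheal one. A value near 1 therefore stands for about 1 read.

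Timp2 read 10619 ± 519 normalized counts in WT tumour-free lungs and 6105 ± 144 in MT2 tumour-free lungs, a log2 difference of -0.80 ± 0.047 with no overlap. In HBSS tumour lungs Timp2 ranged from 5753 to 7781 in WT and from 6512 to 11992 in MT2, so the transcript separates the genotypes only without tumour. Markers of alveolar type 2 cells, summed over 8 genes, reached 319149 to 377454 in WT tumour-free lungs, and the 10 tumour-free lungs all had a luciferase transcript of 0. The tumour-free mice also differed from the tumour mice in the Y-linked Ddx3y. It ranged from 0.958 to 5.78 in WT tumour-free lungs and from 209 to 672 in WT HBSS lungs. In every comparison of tumour with tumour-free lungs, the sex of the mice therefore cannot be told apart from the tumour. The same holds for any other difference between these cohorts and for the cell line's own transcripts. In these bulk samples, fewer cells of a type and less RNA per cell cannot be told apart. Of the 43 members, 4 (Ccl20, Xcl1, Cxcl11 and Ccr8) did not pass the filter on low values in any intratracheal comparison, and 11 did not in any subcutaneous one.

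Per kilobase of exon, Cxcl15 was by far the most abundant member transcript in tumour-free lung. It stood at 9325 ± 693 normalized counts per kb in WT (SD, n = 5). Cxcl14 followed at 1396 ± 95.4 normalized counts per kb, and Ccl6 at 1007 ± 167. Cxcl15 and Cxcl14 are epithelial ligands, while Ccl6 is a myeloid ligand of Ccr1. Cxcl12 and Cxcl17 came next at 488 ± 31.9 and 461 ± 34.1 normalized counts per kb, values that lay within 1 SD of each other. Among receptors, Cxcr4 led with 571 ± 43.2 normalized counts per kb, ahead of Ackr2 with 195 ± 23.1 and Ccr2 with 85.8 ± 13.7.

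With tumour and HBSS the order was different. Ccl6 stood at 1653 ± 1114 normalized counts per kb in WT HBSS lungs, Cxcl15 at 1351 ± 639 and Ccl2 at 1229.5 ± 419. These 3 do not differ beyond their spread. Pf4 followed at 963 ± 466 and Ccl7 at 809 ± 165 normalized counts per kb. Cxcr4 still led the receptors at 322 ± 54.8, and Ccr1, at 229.9 ± 95.2 normalized counts per kb, now stood above Ackr2 at 40.1 ± 42.2.

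Tumour lungs given HBSS were first compared with tumour-free lungs of the same genotype. In WT, 5 of 6 ligands of monocytes and eosinophils and 5 of the 6 neutrophil and platelet CXC ligands rose, while all 6 ligands of resting lung and 7 of 10 receptors tested fell. Of 39 members tested, 14 were higher and 18 lower, where 70.5% of all genes tested were called (32.8% higher and 37.7% lower). In MT2, 12 of 38 members tested were higher and 18 lower, beside 67.4% of all genes (31.5% higher and 35.9% lower). The shares of members called lie close to these backgrounds, so the counts alone set the members apart from no other genes. The median log2 fold change was 0.05 over the WT members and -0.07 over all genes tested in WT. In MT2 it was -0.24 over the members and -0.05 over all genes. The filter on low values was passed by 24 of the 39 WT members in every library of both groups, by 9 in every library of the tumour group alone, by 5 in every library of the tumour-free group alone and by 1 in neither. In MT2 the same split of 38 was 19, 7, 9 and 3. A member that passed through 1 group alone was high there by the filter itself, so its missing overlap is a description only. Through the tumour group alone passed Ccl4, Ccl7, Ccl8, Ccl12, Cxcl1, Cxcl2, Cxcl3, Cxcl5 and Cxcl9 in WT. In MT2 these were Ccl3, Ccl7, Ccl12, Cxcl1, Cxcl2, Cxcl3 and Cxcl5. Through the tumour-free group alone passed Ccl19, Ccr3, Ccr6, Cxcr3 and Cxcr6 in WT. In MT2 these were Ccl5, Ccl17, Ccl22, Ccr3, Ccr6, Cxcr3, Cxcr5, Cxcr6 and Ackr2.

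The calls of the genotypes had 12 members higher in both and 17 lower in both. Cxcl9 and Cxcl10 were called higher in WT, Ccr2 was called lower in MT2, and Ccl19 was lower in WT and not tested in MT2. Ccl24, Ccl3, Ccl4, Ccl6, Cxcl13 and Cx3cr1 did not pass in either genotype. No member was called in opposite directions.

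**Figure D1:**
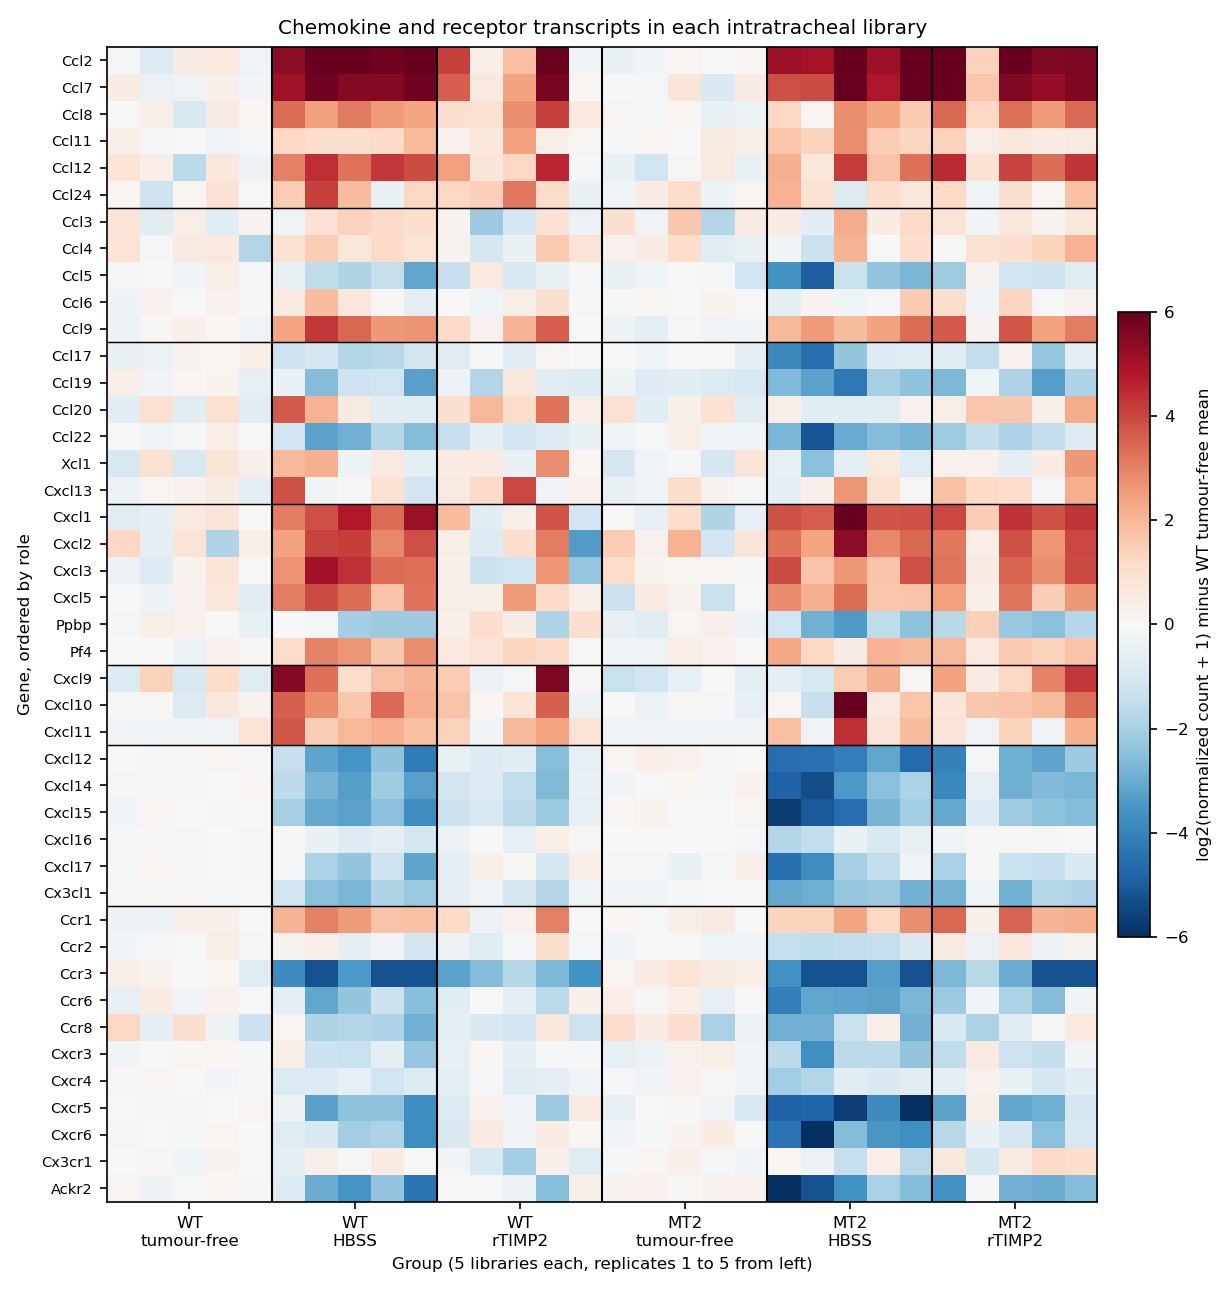
Each column is an intratracheal library, 5 per group, and each row a member, ordered by role with lines between roles. Colour gives log2(normalized count + 1) minus the WT tumour-free mean (blue lower, red higher), and Ccl2 and Ccl7 are red in all 10 HBSS tumour libraries while the ligands from Cxcl12 to Cx3cl1 are mostly blue there.

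Among the 6 ligands of monocytes and eosinophils, 5 rose in each genotype and none fell. Ccl2, a main attractant of Ccr2-bearing monocytes, had the largest log2 fold change of all members. In WT tumour-free lungs Ccl2 read 19.3, 11.6, 28.7, 31.2 and 17.3 normalized counts in replicates 1 to 5. With tumour, WT lungs read 872, 1409, 1363, 1188 and 2163. Even the lowest of these is far above the highest tumour-free library. In MT2, Ccl2 went from 15.2, 18.1, 22.7, 20.02 and 22.5 tumour-free to 742, 683, 4032, 738 and 3395 with tumour. The MT2 tumour values fall apart into 3 libraries close together and the far higher replicates 3 and 5. Ccl2 rose by 5.97 ± 0.29 in WT and by 6.08 ± 0.51 in MT2 on the log2 scale.

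Ccl7, another Ccr2 ligand, moved with similar size. WT tumour-free lungs had 17.3, 9.70, 10.5, 15.6 and 11.2 normalized counts of Ccl7, and WT tumour lungs had 462, 777, 621, 608 and 774. MT2 tumour-free lungs had 11.4, 11.4, 21.8, 6.37 and 17.8 and MT2 tumour lungs 196, 204, 1011, 396 and 1345. The groups are well apart in both genotypes, with MT2 replicates 3 and 5 again the highest. Ccl7 rose by 5.56 ± 0.22 in WT and by 5.08 ± 0.56 in MT2 on the log2 scale.

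Ccl12, a mouse ligand of Ccr2, read 14.4, 10.7, 1.92, 12.7 and 6.11 normalized counts in WT tumour-free lungs and 69.95, 185, 82.5, 165 and 129 in WT tumour lungs. In MT2, Ccl12 read 5.69, 2.86, 8.16, 11.8 and 5.63 without and 36.8, 12.9, 160.4, 27.6 and 85.97 with tumour. MT2 replicate 2 stands just above the tumour-free range, while the WT groups are widely apart. Its log2 fold changes were 3.76 ± 0.47 in WT and 2.67 ± 0.61 in MT2.

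Ccl8, which in mice signals through Ccr8, read 18.3, 23.3, 8.62, 25.3 and 19.3 normalized counts in WT tumour-free lungs and 192, 106, 164, 109 and 95.8 in WT tumour lungs. Ccl8 in MT2 read 19.9, 17.1, 19.95, 12.7 and 14.1 without and 43.9, 20.4, 129, 95.1 and 55.1 with tumour. The MT2 groups nearly touch, at replicate 2 of the tumour group. Ccl8 rose by 2.77 ± 0.31 in WT and by 1.74 ± 0.43 in MT2 on the log2 scale.

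Ccl11 and Ccl24 are eotaxins, ligands of Ccr3 on eosinophils. Ccl11 read 50.1, 36.8, 38.3, 33.1 and 36.6 normalized counts in WT tumour-free lungs and 91.5, 77.6, 76.4, 85.9 and 148 with tumour. In MT2, Ccl11 read 35.1, 42.8, 39.9, 57.3 and 50.6 without and 124, 98.9, 271, 111 and 96.8 with tumour. All HBSS tumour libraries lie above all tumour-free ones of their genotype. Ccl11 changed by 1.24 ± 0.22 in WT and by 1.51 ± 0.29 in MT2 on the log2 scale. Ccl24 did not pass, with tumour values from 4.19 to 119 in WT and from 2.90 to 28.6 in MT2 that overlap the tumour-free ones. The adjusted p (limma, Benjamini-Hochberg) of the 5 calls lay between 8.4e-08 and 4.8e-04 in WT and between 1.9e-06 and 0.0039 in MT2. Marker genes of monocytes and interstitial macrophages, all 10 of 10 listed, summed to 4094 to 5072 in WT tumour-free and 8903 to 14884 in WT tumour lungs, and to 4101 to 4917 and 10144 to 13494 in MT2. Their part in the result was not tested.

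Another group of CC ligands, Ccl3, Ccl4, Ccl5, Ccl6 and Ccl9, split. Of 5 tested, Ccl9 rose and Ccl5 fell in each genotype. Ccl9, a myeloid ligand of Ccr1, read 154, 199.7, 233, 205 and 165 normalized counts in WT tumour-free lungs and 987, 3612, 2096, 1160.0 and 1213 in WT tumour lungs. In MT2, Ccl9 read 153, 130.4, 177, 163 and 169 without and 735, 1115, 699.6, 1027 and 1948 with tumour. Every tumour library exceeds every tumour-free one several times over. The log2 fold changes of Ccl9 were 3.08 ± 0.32 (adjusted p = 1.7e-05, limma) in WT and 2.70 ± 0.25 (adjusted p = 3.5e-06, limma) in MT2.

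Ccl5, made largely by T cells and NK cells, went the other way. WT tumour-free lungs had 175, 188, 172, 257 and 180.2 normalized counts of Ccl5 and WT tumour lungs 139.9, 65.6, 54.6, 73.4 and 21.2. MT2 tumour-free lungs had 142, 161, 187, 177 and 82.5 and MT2 tumour lungs 15.3, 5.38, 74.4, 36.2 and 27.5. The groups do not overlap, although WT tumour replicate 1 and MT2 tumour replicate 3 come near the tumour-free range. The log2 fold changes of Ccl5 were -1.66 ± 0.39 (adjusted p = 0.003, limma) and -2.59 ± 0.56 (adjusted p = 0.0015, limma). The 10 T-cell markers summed to 841 to 1250.4 in WT tumour-free and 116 to 901 in WT tumour lungs, and the 7 NK-cell markers to 465 to 755 and 23.2 to 259. In MT2 the T-cell sums went from 931 to 1116 to 51.6 to 217 and the NK-cell sums from 361 to 601 to 10.6 to 39.01. Their part in the result was not tested. Ccl3, Ccl4 and Ccl6 did not pass in either genotype. Ccl6 was abundant in both settings, with 1427 to 2116 normalized counts in WT tumour-free and 1185 to 6357 in WT tumour lungs, and a log2 difference of 0.50 ± 0.36 (adjusted p = 0.23, limma). Ccl3 and Ccl4 stayed below 100 normalized counts in all intratracheal libraries.

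Among the 6 ligands of lymphoid and dendritic cells, none rose. In WT, 3 of 4 tested were lower, and in MT2 2 of 3. Ccl22 and Ccl17, dendritic-cell ligands of Ccr4, fell in both genotypes. Ccl22 read 194, 161, 175, 253 and 195 normalized counts in WT tumour-free lungs and 86.1, 19.7, 25.5, 57.6 and 31.3 in WT tumour lungs. In MT2, Ccl22 read 164, 195, 248, 175 and 163 without and 27.6, 4.30, 23.2, 31.4 and 26.7 with tumour. No tumour library comes near the tumour-free range. Ccl22 changed by -2.32 ± 0.36 in WT and by -3.22 ± 0.45 in MT2 on the log2 scale.

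Ccl17 read 53.9, 56.2, 85.2, 81.9 and 96.7 normalized counts in WT tumour-free lungs and 30.5, 36.1, 20.6, 22.01 and 33.3 with tumour. In MT2, Ccl17 read 74.9, 59.97, 70.7, 70.98 and 50.6 without and 4.09, 2.15, 13.5, 42.8 and 46.7 with tumour. MT2 tumour replicates 4 and 5 approach the lowest tumour-free library, and replicates 1 and 2 are the lowest of all. Ccl17 changed by -1.36 ± 0.25 in WT and by -2.26 ± 0.7 in MT2 on the log2 scale. The adjusted p (limma, Benjamini-Hochberg) of Ccl22 and Ccl17 lay between 1.9e-04 and 5.8e-04 in WT and between 6.3e-05 and 0.013 in MT2. The 7 genes listed as dendritic-cell markers were Flt3, Xcr1, Clec9a, Cd209a, Zbtb46, Siglech and Fscn1. Their sum moved the opposite way, with 1530.0 to 1931 in WT tumour-free and 3605 to 6444 in WT tumour lungs. Not every marker followed the sum, as Xcr1, 1 of the 7, was called lower in both genotypes. An abundant gene can carry such a sum, so it does not show a rise of dendritic cells. The part of these markers in the result was not tested. Ccl19, a Ccr7 ligand that draws lymphocytes and dendritic cells to lymphoid tissue, was lower in WT at low values, from 12.7 to 24.2 to 1.01 to 13.9 normalized counts, with overlap. Cxcl13, the B-cell ligand of Cxcr5, did not pass, and its WT tumour values ran from 13.1 to 441. Ccl20 and Xcl1 were not tested and stayed below 40 normalized counts.

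The ligands that act on Cxcr2 and bring in neutrophils rose together with Pf4, while Ppbp fell: 5 of 6 were higher and 1 lower in each genotype. Cxcl1, Cxcl2 and Cxcl3 lie near each other on chromosome 5 and are known targets of NF-κB. The 250 bases before their starts are shown with those of Cxcl15, a gene between them that fell, to set the neighbouring sequences side by side. The sequences are from RefSeq (GRCm38.p6, + strand), at chr5:90890995-90891244, chr5:90903649-90903898, chr5:90785851-90786100 and chr5:90794284-90794533, and capitals mark matches to GGGNNTTTCC, an NF-κB-type motif, on either strand.
Cxcl1: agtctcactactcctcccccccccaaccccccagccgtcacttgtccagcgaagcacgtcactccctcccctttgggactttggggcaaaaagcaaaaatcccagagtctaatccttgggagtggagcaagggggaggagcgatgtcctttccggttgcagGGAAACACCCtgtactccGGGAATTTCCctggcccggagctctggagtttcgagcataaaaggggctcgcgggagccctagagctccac
Cxcl2: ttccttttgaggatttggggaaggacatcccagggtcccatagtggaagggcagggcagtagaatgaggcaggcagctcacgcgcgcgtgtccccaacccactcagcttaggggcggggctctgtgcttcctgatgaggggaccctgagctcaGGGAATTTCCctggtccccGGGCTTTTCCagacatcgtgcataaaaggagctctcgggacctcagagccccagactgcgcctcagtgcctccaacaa
Cxcl3: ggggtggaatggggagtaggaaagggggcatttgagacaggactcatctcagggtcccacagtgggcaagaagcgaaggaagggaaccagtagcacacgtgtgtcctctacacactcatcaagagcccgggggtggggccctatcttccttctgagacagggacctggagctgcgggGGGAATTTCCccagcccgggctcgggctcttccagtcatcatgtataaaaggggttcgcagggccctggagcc
Cxcl15: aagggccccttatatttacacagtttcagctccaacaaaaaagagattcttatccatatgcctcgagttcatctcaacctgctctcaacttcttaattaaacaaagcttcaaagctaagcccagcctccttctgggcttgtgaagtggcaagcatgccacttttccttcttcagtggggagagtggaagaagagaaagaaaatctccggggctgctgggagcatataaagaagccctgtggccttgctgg
Cxcl1 holds 2 matches, on opposite strands, at bases 71 to 62 and 89 to 80 before the start. Cxcl2 holds 2 matches on the gene's strand and Cxcl3 holds 1, while these letters are not in the Cxcl15 window. The motif was found in 464 of 32851 windows of this length (1.41%). It was found in 6 of the 32 members that have an entry (18.8%), namely Cxcl1, Cxcl2, Cxcl3, Ccl9, Ccl20 and Ccr3. A member counted when any of its windows matched, so the shares have unlike units, windows and genes, and were not compared. A match is a description of the letters and not a measured binding site.

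Cxcl1 read 8.67, 9.70, 22.02, 26.3 and 15.3 normalized counts in WT tumour-free lungs and 135, 231, 454, 161 and 571 in WT tumour lungs. In MT2, Cxcl1 read 15.2, 10.5, 32.6, 3.64 and 10.3 without and 224, 198, 1912, 221 and 223 with tumour. All tumour libraries are above all tumour-free ones, and 4 MT2 tumour libraries sit together near 200 with replicate 3 far above them. Cxcl1 rose by 4.05 ± 0.45 in WT and by 4.73 ± 0.67 in MT2 on the log2 scale, the largest of the CXC ligands in each.

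Cxcl2 read 23.1, 5.82, 17.2, 1.95 and 12.2 normalized counts in WT tumour-free lungs and 53.8, 169, 179, 75.4 and 151 with tumour. In MT2, Cxcl2 read 28.4, 11.4, 42.6, 3.64 and 15.9 without and 99.1, 51.6, 420.4, 74.1 and 110.2 with tumour. Replicate 3 is again the highest MT2 tumour library. Cxcl2 changed by 3.47 ± 0.57 in WT and by 2.77 ± 0.66 in MT2 on the log2 scale.

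Cxcl3, whose tumour-free values were all below 10, read 31.4, 159.6, 101, 49.3 and 47.4 normalized counts in WT tumour lungs and 2.89, 1.94, 4.79, 7.80 and 4.07 in WT tumour-free lungs. In MT2 tumour lungs Cxcl3 ranged from 15.1 to 74.6. Its log2 fold changes were 3.75 ± 0.46 and 2.45 ± 0.49. Cxcl5, an epithelial ligand of Cxcr2, ranged from 2.04 to 6.82 in WT tumour-free and from 14.7 to 72.2 in WT tumour lungs. Cxcl5 changed by 3.06 ± 0.43 in WT and by 2.75 ± 0.48 in MT2 on the log2 scale. Cxcl3 and Cxcl5 did not overlap between groups in either genotype, but both passed the filter through the tumour group alone, as did Cxcl1 and Cxcl2.

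Pf4 and Ppbp are both stored in platelets, and Pf4 is also made by some macrophages. Pf4 read 134, 131, 102, 155 and 138 normalized counts in WT tumour-free lungs and 279, 1049, 833, 399 and 911 in WT tumour lungs. In MT2, Pf4 read 118, 109, 172, 157 and 129 without and 664, 312, 186, 567 and 517 with tumour. The groups are apart in both genotypes. Ppbp moved against Pf4, with 201, 281, 267, 215 and 159.8 normalized counts in WT tumour-free lungs and 227, 204, 53.4, 48.2 and 48.4 in WT tumour lungs. In MT2, Ppbp read 159, 143, 244, 269 and 179 without and 94.98, 29.03, 20.3, 77.1 and 39.2 with tumour. WT tumour replicates 1 and 2 lie inside the tumour-free range of Ppbp, and in MT2 the groups do not overlap. Pf4 changed by 2.23 ± 0.34 and 1.59 ± 0.32 on the log2 scale, and Ppbp by -1.29 ± 0.47 and -2.10 ± 0.4. The 7 platelet and megakaryocyte markers summed to 368 to 514 in WT tumour-free and 141 to 369.5 in WT tumour lungs, and to 332 to 575 and 85.3 to 247 in MT2, and their part was not tested. The adjusted p (limma, Benjamini-Hochberg) of the 5 rises lay between 2.2e-05 and 2.9e-04 in WT and between 8e-05 and 0.0029 in MT2. Ppbp had an adjusted p of 0.029 in WT and 6.4e-04 in MT2 (limma). The WT call of Ppbp was lost without WT tumour-free replicate 2 or 3, or without WT HBSS replicate 3, 4 or 5, with adjusted p values from 0.061 to 0.073. In 1 fit of all groups it was lost too (adjusted p = 0.07, limma). The 10 neutrophil markers, on the other hand, overlapped between groups, at 1169.6 to 3166 in WT tumour-free and 1403 to 5078 in WT tumour lungs.

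Cxcl9, Cxcl10 and Cxcl11 are interferon-induced ligands of Cxcr3 on activated T cells. In WT, both tested members rose, and in MT2 neither passed. Cxcl10 read 29.9, 33.9, 18.2, 50.7 and 38.7 normalized counts in WT tumour-free lungs and 400.0, 233, 103, 357 and 149 with tumour, without overlap and with a log2 fold change of 2.72 ± 0.39 (adjusted p = 1.2e-04, limma). MT2 tumour lungs read 36.8, 11.8, 2189, 49.5 and 107 for Cxcl10 against 33.2, 25.7, 34.5, 30.9 and 22.5 tumour-free. There replicate 3 is far above the rest and replicate 2 below the tumour-free range. The MT2 log2 difference of Cxcl10 was 1.58 ± 1.1 (adjusted p = 0.21, limma). Cxcl9 ranged from 7.66 to 42.7 in WT tumour-free and from 33.96 to 743 in WT tumour lungs, with a log2 fold change of 2.73 ± 0.81 (adjusted p = 0.011, limma). In MT2 the log2 difference of Cxcl9 was 1.16 ± 0.58 (adjusted p = 0.097, limma). Cxcl9 was called higher in MT2 under quantile normalization, with the replicate block and without MT2 HBSS replicate 2 (adjusted p = 0.0012, 0.033 and 0.031, limma). The test of the difference between genotypes gave an adjusted p of 0.66 for Cxcl9 and 0.81 for Cxcl10 (limma interaction). Cxcl11 was not tested, and its highest intratracheal value was 24.2 normalized counts, in MT2 HBSS replicate 3.

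All 6 ligands of resting lung tissue fell in both genotypes. Cxcl15, a lung epithelial CXC ligand, read 17575, 21260.0, 20288, 20821 and 19225 normalized counts in WT tumour-free lungs and 4935, 2326, 2151, 3476 and 1478 in WT tumour lungs. In MT2, Cxcl15 read 21576, 22832, 19429.7, 19475 and 22511 without and 378, 598, 839, 2817 and 4690.0 with tumour. MT2 tumour libraries differ widely among themselves, and the highest of them is still far below the tumour-free range. Cxcl15 changed by -2.91 ± 0.27 in WT and by -4.13 ± 0.59 in MT2 on the log2 scale. The 8 type 2 cell markers summed to 27423 to 143311 in WT and 8914 to 146637 in MT2 tumour lungs, below all tumour-free sums, and their part in the result was not tested.

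Cxcl12, a ligand of Cxcr4 made by endothelial and stromal cells, read 4081, 3666, 4167, 4273 and 3773 normalized counts in WT tumour-free lungs and 1503, 442, 341, 736 and 216 with tumour. In MT2, Cxcl12 read 4407, 5314, 4738, 4175 and 4107 without and 165, 178, 222, 453 and 162 with tumour. WT tumour replicate 1 kept the most and 4 MT2 tumour libraries held close to 200. Cxcl12 changed by -2.95 ± 0.42 in WT and by -4.38 ± 0.26 in MT2 on the log2 scale. The 9 endothelial markers summed to 52966 to 60306 in WT tumour-free and 4075 to 20131 in WT tumour lungs, and to 54098 to 60243 and 2876 to 10959.6 in MT2, while the 7 fibroblast markers went up, from 20506 to 25749 to 33960.1 to 97047 in WT. Their part in the result was not tested.

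Cxcl14, an epithelial and fibroblast ligand, read 2412, 2691, 2381, 2494 and 2775 normalized counts in WT tumour-free lungs and 864, 371, 261, 572 and 269 with tumour. In MT2, Cxcl14 read 2285, 2628, 2767, 2348 and 3044 without and 86.8, 63.4, 229, 449 and 691 with tumour. Replicates 1 and 2 were the lowest MT2 tumour libraries, as they were for Cxcl15. Cxcl14 changed by -2.60 ± 0.29 in WT and by -3.63 ± 0.56 in MT2 on the log2 scale.

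Cx3cl1, a membrane-bound ligand of Cx3cr1, read 990.0, 1098, 1103, 946 and 1049.5 normalized counts in WT tumour-free lungs and 465, 179, 152, 299.7 and 224 with tumour. In MT2, Cx3cl1 read 906, 853, 994, 1016 and 1066 without and 124, 133, 204, 231 and 139 with tumour. The groups are far apart in both genotypes. Its log2 fold changes were -2.09 ± 0.26 and -2.58 ± 0.18.

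Cxcl17, a mucosal ligand, read 328, 386, 328, 342 and 371 normalized counts in WT tumour-free lungs and 321, 91.8, 66.7, 147 and 38.3 with tumour, where replicate 1 comes close to the tumour-free range. In MT2 tumour lungs Cxcl17 ranged from 14.3 to 292, with replicate 5 inside the tumour-free range. Cxcl17 changed by -1.77 ± 0.45 and -2.31 ± 0.66 on the log2 scale.

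Cxcl16, a ligand of Cxcr6 that occurs in membrane-bound form, changed least. Cxcl16 read 955, 1049, 942, 1035 and 1045 normalized counts in WT tumour-free lungs and 924, 757, 586, 683 and 489.8 with tumour. In MT2, Cxcl16 read 1033, 1009.6, 1027, 996 and 953 without and 294, 359, 754, 541 and 743 with tumour. WT tumour replicate 1 is just below the lowest tumour-free library. Cxcl16 changed by -0.58 ± 0.15 in WT and by -0.996 ± 0.25 in MT2 on the log2 scale. Over the 6 tissue ligands the adjusted p (limma, Benjamini-Hochberg) lay between 7.6e-06 and 0.005 in WT and between 2e-07 and 0.0091 in MT2.

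**Figure D2:**
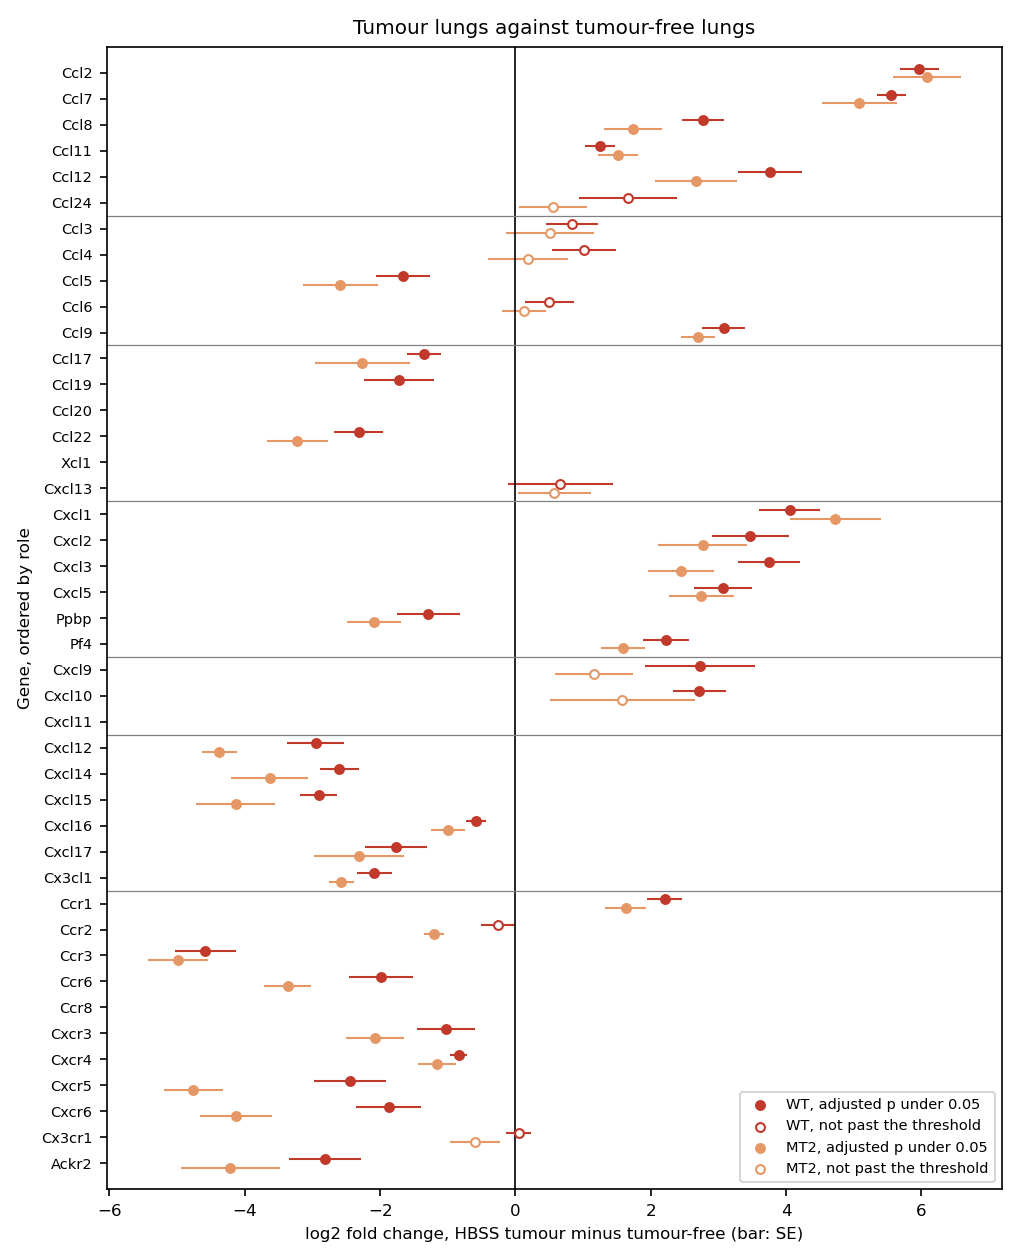
Log2 fold changes (HBSS tumour minus tumour-free, on log2(normalized count + 1)) of each tested member in WT (red) and MT2 (orange), with standard errors as bars; filled points had an adjusted p under 0.05 in limma. Ccl2 lies farthest right at 5.97 in WT and 6.08 in MT2, and the tissue ligands from Cxcl12 to Cx3cl1 lie left of 0 in both.

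Receptors fell more often than they rose: of 10 tested, 1 was higher and 7 lower in WT, and 1 was higher and 8 lower in MT2. Ccr1, on monocytes, macrophages and neutrophils, was the receptor that rose. In WT, Ccr1 read 108, 105, 163, 161 and 134 normalized counts without and 536, 1062, 785, 429.6 and 445 with tumour. In MT2, Ccr1 read 142, 134, 169.6, 185 and 129 without and 332, 341, 677, 314 and 931 with tumour. No tumour library overlaps the tumour-free range. The log2 fold changes of Ccr1 were 2.21 ± 0.26 (adjusted p = 2.9e-05, limma) and 1.63 ± 0.3 (adjusted p = 5.0e-04, limma).

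Ccr2, the monocyte receptor of Ccl2, Ccl7 and Ccl12, did not follow its ligands. WT tumour-free lungs had 520.1, 523, 581, 739.9 and 535 normalized counts of Ccr2 and WT tumour lungs 665, 757, 379.6, 501 and 268, which surround the tumour-free range. MT2 tumour-free lungs had 502, 589, 565, 478 and 505 and MT2 tumour lungs 218, 198, 209, 219 and 309. In MT2 the groups do not overlap, and tumour lungs are lower. The log2 difference of Ccr2 was -0.26 ± 0.25 in WT (adjusted p = 0.38, limma) and -1.21 ± 0.14 in MT2 (adjusted p = 2.1e-05, limma). The difference between genotypes did not pass, with an interaction of -0.95 ± 0.3 (adjusted p = 0.26, limma).

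Ccr3, the eosinophil receptor of Ccl11 and Ccl24, nearly vanished from tumour lungs. In WT, Ccr3 ranged from 21.4 to 48.2 normalized counts without tumour and read 1.79, 0, 2.43, 0 and 0 with tumour. In MT2, Ccr3 read 40.8, 49.5, 65.3, 53.7 and 48.8 without and 2.04, 0, 0, 2.85 and 0 with tumour. The tumour values correspond to 0 to 3 reads. The fitted log2 fold changes, -4.58 ± 0.45 and -4.99 ± 0.45, depend on the number added before the logarithm and were -2.12 and -2.48 when 10 was added instead of 1. Markers of eosinophils and mast cells (5 of 6 in the table) summed to 36.6 to 48.8 in WT tumour-free and 4.03 to 58.3 in WT tumour lungs, and their part was not tested.

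Cxcr5, the B-cell receptor of Cxcl13, read 150.2, 138, 133, 147 and 166 normalized counts in WT tumour-free lungs and 120.2, 14.2, 25.5, 26.2 and 10.1 with tumour. In MT2, Cxcr5 read 104, 145, 152, 126 and 74.1 without and 4.09, 4.30, 1.93, 9.51 and 0.835 with tumour. WT tumour replicate 1 kept most of the tumour-free level, and no MT2 tumour library reached 10. Cxcr5 changed by -2.44 ± 0.53 in WT and by -4.76 ± 0.44 in MT2 on the log2 scale. The 7 B-cell markers summed to 1691 to 2661 in WT tumour-free and 89.8 to 1266 in WT tumour lungs, and to 1311 to 2679 and 54.8 to 154 in MT2, and their part was not tested.

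Cxcr6, the receptor of Cxcl16 on T and NK cells, read 62.6, 63.03, 60.3, 72.1 and 66.2 normalized counts in WT tumour-free lungs and 38.6, 32.8, 14.6, 16.8 and 4.03 with tumour. In MT2, Cxcr6 read 55.9, 59.97, 76.2, 89.2 and 65.6 without and 2.04, 0, 9.66, 4.76 and 4.17 with tumour. The MT2 tumour values are all below 10. Cxcr6 changed by -1.87 ± 0.48 in WT and by -4.13 ± 0.53 in MT2 on the log2 scale.

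Cxcr4, the widely expressed receptor of Cxcl12, read 1083, 1118, 1058, 934 and 968 normalized counts in WT tumour-free lungs and 576, 585, 726, 446 and 577 with tumour. In MT2, Cxcr4 read 958, 892, 1244, 1072 and 852 without and 241, 304, 652, 569.9 and 644 with tumour. The fall of this receptor is small beside that of its ligand. Cxcr4 changed by -0.84 ± 0.12 in WT and by -1.16 ± 0.28 in MT2 on the log2 scale.

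Ackr2, the atypical receptor that clears inflammatory CC ligands, read 677, 492, 602, 653 and 631 normalized counts in WT tumour-free lungs and 353, 75.4, 50.9, 118 and 28.2 with tumour. In MT2, Ackr2 read 704, 726, 645, 693 and 719 without and 5.11, 15.1, 48.3, 157 and 97.7 with tumour. WT replicate 1 is the highest WT tumour library, as for Cxcl12, Cxcl15 and Cxcr5. Ackr2 changed by -2.81 ± 0.53 in WT and by -4.21 ± 0.73 in MT2 on the log2 scale.

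Ccr6, the receptor of Ccl20, was lower at low values, from 11.6 to 23.3 to 1.09 to 10.8 normalized counts in WT and from 11.8 to 22.8 to 0 to 1.67 in MT2. Cxcr3 was lower in MT2 (-2.08 ± 0.42 on the log2 scale). In WT its log2 fold change was -1.03 ± 0.43 with an adjusted p of 0.048 (limma), and WT tumour replicate 1, at 52.02, lay above the tumour-free range. This WT call was lost in 9 of 10 fits that left out a library, with no filter, with the replicate block and under quantile normalization (adjusted p from 0.055 to 0.11 in the last 3, limma). Cx3cr1, on patrolling monocytes and NK cells, did not pass, with log2 differences of 0.05 ± 0.19 and -0.60 ± 0.37. Ccr8 was not tested and stayed at or below 16.4 normalized counts. For the receptors that fell, apart from Cxcr3 in WT, the adjusted p (limma, Benjamini-Hochberg) lay between 1.1e-05 and 0.0045 in WT, and for all 8 that fell in MT2 between 2.7e-06 and 0.0032.

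Many members are neighbours in the genome (GRCm38 positions). Ccl2 (chr11:82035571-82037453), Ccl7 (chr11:82045712-82047525), Ccl11 (chr11:82057823-82062955), Ccl12 (chr11:82101845-82103400) and Ccl8 (chr11:82115185-82116799) form a run on chromosome 11, and all 5 rose in both genotypes. Further along, Ccl5 (chr11:83525778-83530518) fell and Ccl9 (chr11:83572919-83578636) rose. On chromosome 5, Cxcl5 (chr5:90759360-90761624), Pf4 (chr5:90772435-90773383), Cxcl3 (chr5:90786103-90789600), Cxcl1 (chr5:90891241-90893115) and Cxcl2 (chr5:90903871-90905938) rose. Ppbp (chr5:90768518-90770063) and Cxcl15 (chr5:90794534-90803067), which lie between them, fell. On chromosome 8, Ccl22 (chr8:94745590-94751699), Cx3cl1 (chr8:94772009-94782427) and Ccl17 (chr8:94810453-94812036) fell together. Neighbours therefore moved in the same direction in the chromosome 8 group and in the first 5 genes of the chromosome 11 group, and in opposite directions within the chromosome 5 group.

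**Figure D3:**
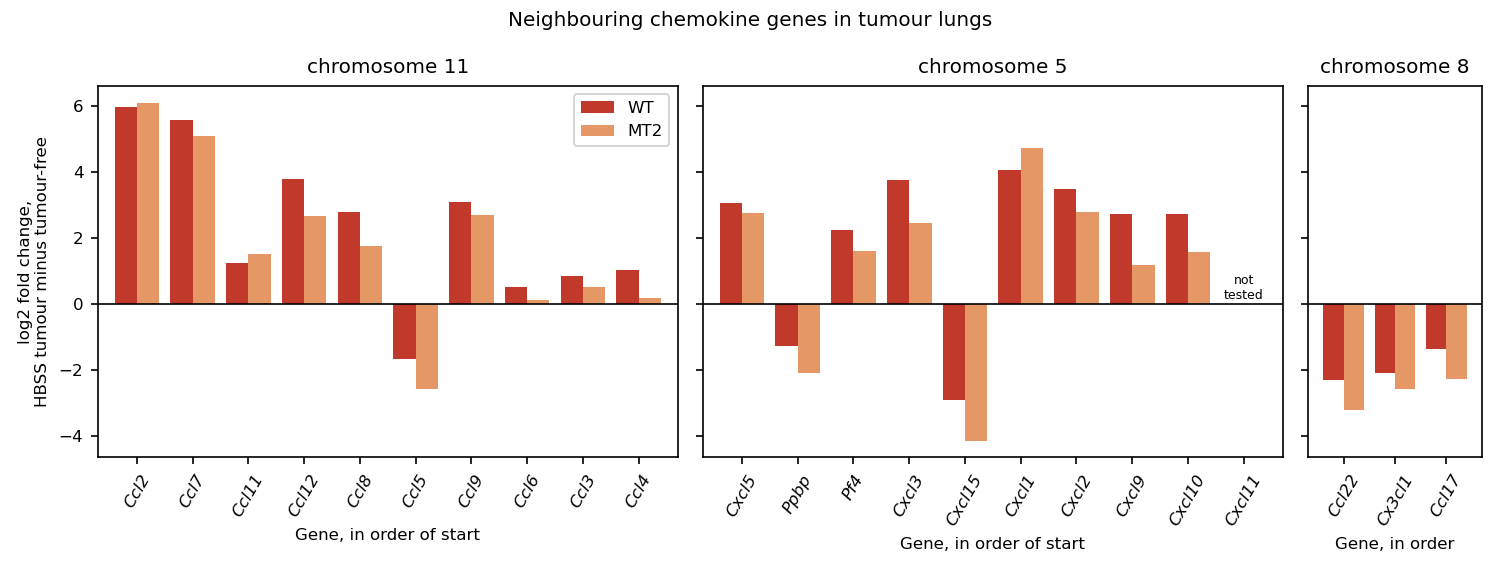
Bars give the log2 fold change (HBSS tumour minus tumour-free) of neighbouring member genes in WT (red) and MT2 (orange), in order of their start on chromosomes 11, 5 and 8 (not to genomic scale). The bars of Ccl5, Ppbp and Cxcl15 point down between neighbours that point up.

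Genotypes were then compared directly. In tumour-free lungs, no member of 35 tested differed between MT2 and WT, where 0.0238% of all genes tested were called, 0.0119% higher and 0.0119% lower (limma, 5 members at an unadjusted p under 0.05). The largest difference among those 5 was Ccl19, at -0.69 ± 0.25 on the log2 scale (adjusted p = 0.42, limma). In HBSS tumour lungs, no member of 35 was called and 0% of all genes were (6 members at an unadjusted p under 0.05). Cxcr5 was the member whose groups did not overlap, with all MT2 tumour lungs below all WT ones and a log2 difference of -2.65 ± 0.68 (adjusted p = 0.44, limma). It passed the filter on low values through the WT group alone, so its missing overlap is a description only. In a fit with all 6 groups, Cxcr5 was the 1 member called, beside 119 of all 16299 genes tested. Ccr2 had a log2 difference of -1.08 ± 0.27 (adjusted p = 0.44, limma), with MT2 tumour lungs at 198 to 309 normalized counts and WT ones at 268 to 757. The median over members was -0.71 in HBSS lungs and -0.03 over all genes.

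The interaction of genotype with tumour called none of 39 members, beside 0.0223% of all genes (5 members at an unadjusted p under 0.05, limma). Those 5 were Cxcl12, Ccr2, Ccr6, Cxcr5 and Cxcr6, and all had interactions below 0, from -0.95 ± 0.3 for Ccr2 to -2.32 ± 0.71 for Cxcr5. Their adjusted p ranged from 0.26 to 0.43 (limma). A larger fall in MT2 than in WT was thus not shown for any receptor or ligand.

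Treated tumour lungs were next compared with HBSS tumour lungs of the same genotype, beginning with WT. In WT, 16 of 38 members tested were called, 9 higher and 7 lower, where 27.3% of all genes were called (16% higher and 11.3% lower). Cxcl1, Cxcl2, Cxcl3, Cxcl5, Pf4, Ccl2 and Ccl7 were lower with rTIMP2. Ccl17, Ccl22, Cxcl12, Cxcl14, Cxcl15, Cxcl17, Cx3cl1, Cxcr6 and Ackr2 were higher. All 16 adjusted p values lay between 0.04 and 0.05 (limma), close to the threshold.

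These calls rest on the whole set of libraries. None of the 16 passed when any 1 of 8 libraries was left out (WT HBSS replicate 2, 3, 4 or 5, or WT rTIMP2 replicate 1, 2, 3 or 5). Without WT HBSS replicate 1 there were 23 calls, and without WT rTIMP2 replicate 4 there were 29. The calls over all genes moved with them: 4619 with all libraries, 0 in the same 8 fits, 7308 without WT HBSS replicate 1 and 9584 without WT rTIMP2 replicate 4. The 27.3% of genes called rests on the same libraries. The treated lungs were not alike in tumour content. Luciferase read 23.3, 0, 0, 67.7 and 0 normalized counts in WT rTIMP2 replicates 1 to 5, and the tumour transcript Hmga2 read 1198, 23.5, 32.1, 2779.8 and 13.6, beside 12.6 to 27.8 in tumour-free and 2212 to 4713 in HBSS tumour lungs. Xist, which the tumour-free group held at 4118 to 5057, read 1963, 42.2, 92.4, 2033 and 54.5 in the treated mice. The part of tumour content and cohort in the member changes was not tested.

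Cxcl1, Cxcl2, Cxcl3 and Cxcl5, 4 of the 7 lower members, passed the filter on low values through the HBSS group alone, where they are high. Cxcl3 was the 1 lower member without overlap. WT rTIMP2 lungs read 5.07, 1.02, 1.15, 28.6 and 0 normalized counts of Cxcl3, all below the lowest HBSS value of 31.4. Its log2 fold change was -4.13 ± 0.85. Cxcl1 read 57.8, 9.21, 19.5, 218 and 6.26 in treated lungs, where replicates 2, 3 and 5 are at or below tumour-free levels and replicate 4 lies inside the HBSS range. Cxcl1 changed by -3.21 ± 0.87 on the log2 scale. Cxcl2 read 12.2, 5.11, 19.5, 85.7 and 0 in treated lungs, with a log2 fold change of -3.41 ± 0.99. Replicate 4 of Cxcl2 again lies inside the HBSS range.

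Ccl2 read 362, 27.6, 73.4, 1298 and 16.7 normalized counts in WT rTIMP2 lungs, and Ccl7 read 161, 19.4, 71.1, 704 and 13.6. Both span from the tumour-free range to the HBSS range, with replicates 2 and 5 low and replicate 4 high. The log2 fold changes were -3.58 ± 1.0 for Ccl2 and -3.08 ± 0.9 for Ccl7. Cxcl5 and Pf4 changed by -2.11 ± 0.55 and -1.46 ± 0.39 on the log2 scale. Ccl12, Ccl9 and Ccr1 did not pass, with log2 differences of -1.99 ± 0.76, -1.66 ± 0.64 and -1.38 ± 0.58.

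Among members higher with rTIMP2, Ccl17 was the 1 without overlap. WT rTIMP2 lungs read 45.7, 66.5, 45.9, 82.4 and 72.03 normalized counts of Ccl17, all above the highest HBSS value of 36.1. Its log2 fold change was 1.10 ± 0.29, and the call was lost under quantile normalization and in 1 fit of all groups (adjusted p = 0.11 and 0.091, limma). Cxcl15 read 8149, 10021, 6417, 4258 and 13879 in treated lungs, between the groups in 4 of 5, and replicate 4 lies inside the HBSS range. Cxcl15 changed by 1.59 ± 0.38 on the log2 scale. The type 2 cell markers summed to 87514 to 348952 in the treated lungs, and their part was not tested.

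Cxcl12 read 2916, 2338, 2569, 668 and 2852 normalized counts in WT rTIMP2 lungs, with replicate 4 apart from the other 4. Ackr2 read 623, 591, 469, 102 and 766, where replicate 4 is again the low one. The log2 fold changes were 1.97 ± 0.55 for Cxcl12 and 2.29 ± 0.71 for Ackr2. Cxcr6 read 34.5, 92.1, 57.3, 89.8 and 70.99 in treated lungs and changed by 1.88 ± 0.55. For Cxcr6 the lowest treated library was replicate 1, not replicate 4. Ccl22, Cxcl14, Cxcl17 and Cx3cl1 changed by 1.47 ± 0.41, 1.33 ± 0.45, 1.63 ± 0.52 and 1.31 ± 0.36. Cxcl14 lost its call under quantile normalization (adjusted p = 0.053, limma), and Ackr2, Cxcl14 and Cxcl17 lost theirs with no filter (adjusted p = 0.051, 0.06 and 0.053, limma). Cxcr6 passed the filter through the rTIMP2 group alone. Cxcr5 and Ccr6 did not pass, with log2 differences of 1.96 ± 0.69 (adjusted p = 0.055, limma) and 1.48 ± 0.56 (adjusted p = 0.065, limma).

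Each treated library can be placed by the 13 members that rose without overlap in WT tumour. Replicate 5 lay in the tumour-free range for 9 of the 13 and in the HBSS range for 0. Replicate 2 lay in the tumour-free range for 7 and in the HBSS range for 0. Replicate 4 lay in the HBSS range for 6 and in the tumour-free range for 0, and replicates 1 and 3 were placed in the tumour-free range for 4 and 3 and in the HBSS range for 1 and 3. Of the 15 members that fell without overlap in WT tumour, replicates 1 and 4 lay in the HBSS range for 8 and 9 and in the tumour-free range for 1 each. Replicates 2 and 5 lay in the tumour-free range for 5 and 4 of the 15 and in the HBSS range for 0 and 1, and replicate 3 for 1 and 3. Over all genes, 70.5% were called in that tumour comparison, and the share without overlap was not counted over all genes. The 13 and the 15 were chosen by these same HBSS and tumour-free libraries, and several of them passed the filter through 1 group alone. These placements describe the libraries, define no groups and show nothing particular to the members.

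In MT2, rTIMP2 changed no member past the threshold: none of 36 tested was called, nor was any other gene (0%, limma), and 11 members had an unadjusted p under 0.05. The median over members was 0.86 and that over all genes 0.03. Ccr2 read 832, 450.2, 916, 453 and 671 normalized counts in MT2 rTIMP2 lungs, all above the HBSS range of 198 to 309. Its log2 difference was 1.48 ± 0.25 (adjusted p = 0.18, limma). Cxcr5 read 14.7, 191, 16.02, 18.5 and 72.7 and Cxcr6 read 19.6, 49.1, 32.04, 10.7 and 32.8 in the treated lungs, both without overlap with HBSS. Cxcr5, Cxcr6, Ccl22 and Cxcr3 passed the filter on low values through the rTIMP2 group alone, where they are high, so the missing overlap of these 4 is a description only. The log2 differences of Cxcr5 and Cxcr6 were 3.11 ± 0.76 and 2.75 ± 0.65 (adjusted p = 0.32 and 0.31, limma). Ccl22, Cxcl16 and Cxcr3 also did not overlap, with log2 differences of 1.76 ± 0.52, 0.95 ± 0.27 and 1.38 ± 0.57. In a fit with all 6 groups, Ccl5, Ccl22, Cxcl15, Cxcl16, Ccr2, Cxcr5 and Cxcr6 were called higher. That fit called 575 of 16248 genes, 410 higher and 165 lower.

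Ccl2 read 1654, 55.04, 1403, 999 and 1079 normalized counts and Cxcl1 read 257, 45.2, 318, 223 and 317 in MT2 rTIMP2 lungs, and both lay inside their HBSS ranges in 4 of 5. Replicate 2 is the low one in both, and it is the high one for Cxcl12, at 3777, and for Ackr2, at 551. Luciferase read 75.5, 0.983, 50.9, 37.9 and 55.3 in these lungs and Hmga2 read 5299.5, 63.9, 3309, 4378 and 3112, with replicate 2 the lowest of both, and their part was not tested. Other ligands differed from this pattern: Ccl11 read 101, 51.1, 63.1, 53.4 and 56.3, below the HBSS range in 4 of 5, and Ccl8 read 203, 43.2, 187, 109.8 and 199.6, above it in 3 of 5. Their log2 differences did not pass, at -1.03 ± 0.34 and 1.16 ± 0.56 (adjusted p = 0.45 and 0.54, limma). The interaction of genotype with rTIMP2 called none of 38 members and 0% of all genes (11 members at an unadjusted p under 0.05, limma). The largest interaction among the 11 was that of Cxcl3, at 4.16 ± 1.2 on the log2 scale (adjusted p = 0.67, limma). A different response of the genotypes to rTIMP2 was therefore not shown for any member.

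**Figure D4:**
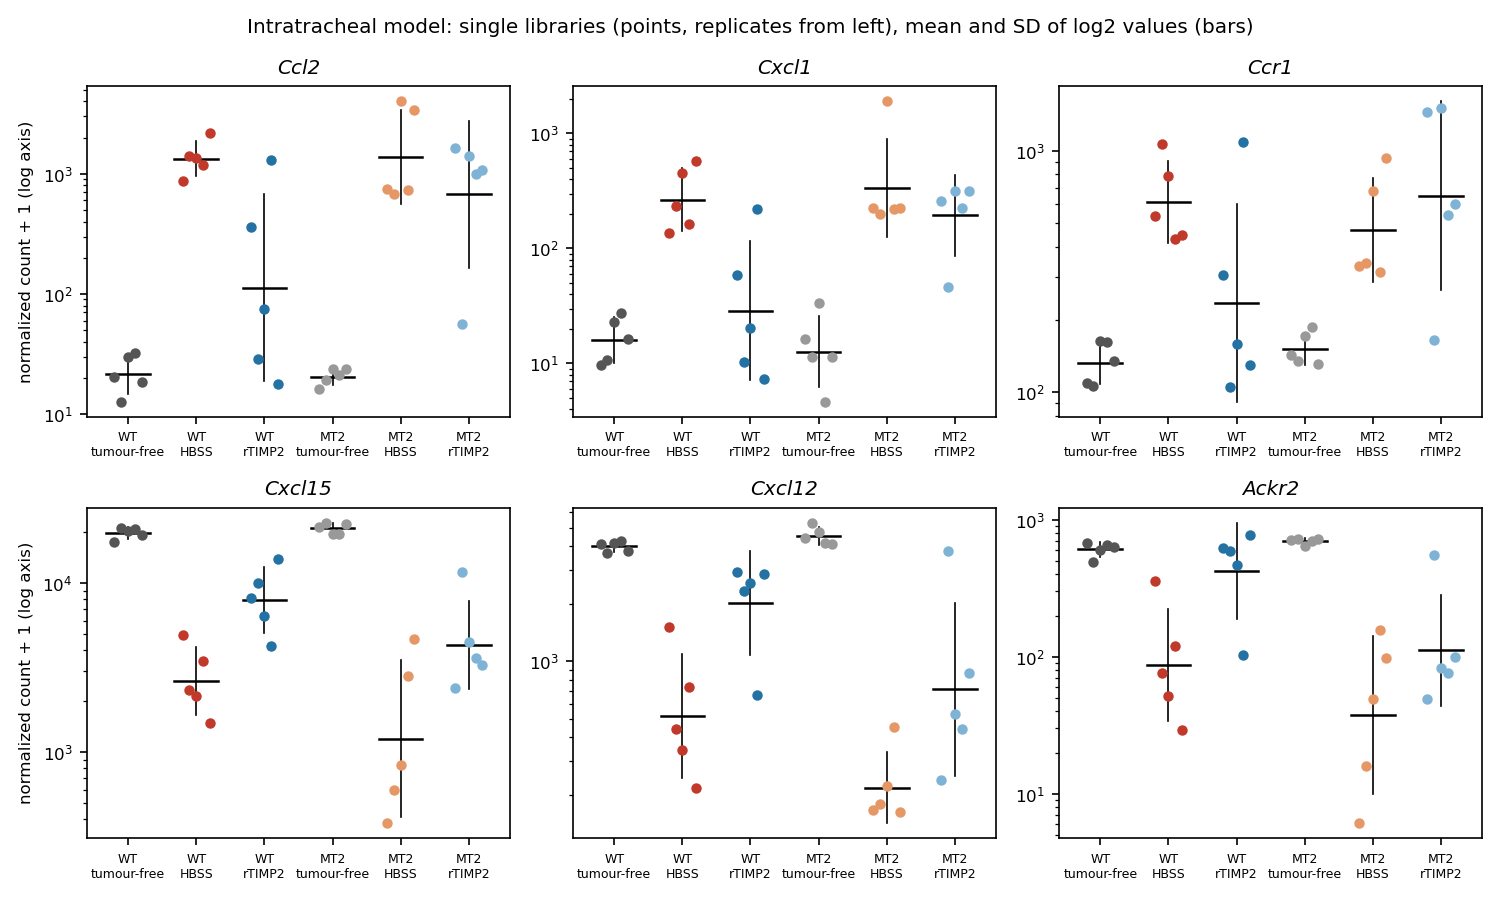
Points are libraries (replicates 1 to 5 from left) of the 6 intratracheal groups for Ccl2, Cxcl1, Ccr1, Cxcl15, Cxcl12 and Ackr2, as normalized count + 1 on log axes, and bars give the mean and SD of the log2 values. WT rTIMP2 replicate 4 is the highest treated WT lung for Ccl2 and the lowest for Cxcl12, and MT2 rTIMP2 replicate 2 lies apart from the other 4.

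In the lungs of mice with subcutaneous tumours, few members were called between treatments. Of 31 members tested, 1 was higher and 0 lower with rTIMP2 from day 0, where 8.1% of all genes were called (3.88% higher and 4.21% lower). With rTIMP2 from day 7, 0 were higher and 3 lower, where 10.4% of all genes were called (4.46% higher and 5.92% lower). Between the treated groups 0 of 31 were called (0.235% of all genes, 0.154% higher and 0.0801% lower, with 1 member at an unadjusted p under 0.05, limma). Against HBSS, 9 of 31 members had an unadjusted p under 0.05 for day 0 and 9 of 31 for day 7. All 10 receptors tested had a log2 difference above 0 in each, with a median of 0.46 for day 0 and 0.33 for day 7, and 2 of them, Ccr3 and Ccr6, passed the filter through the treated group alone. The treated groups share the HBSS controls, so their comparisons are not independent of each other. The median log2 fold change over members was 0.07 for day 0 and -0.08 for day 7, beside -0.003 and 0.007 over all genes.

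Levels in the HBSS lungs of this model resembled the order in tumour-free lung within each table: Cxcl15 led with 7241 ± 1321 normalized counts per kb, followed by Ccl6 with 1657 ± 218 and Cxcl14 with 1236 ± 172. Ccl2, at 2.13 to 14.03 normalized counts, was low in all 5 HBSS lungs. Luciferase ranged from 14.3 to 31.3 in these lungs, and summed with Hmga2 and Rhox5, the other genes on the tumour-cell list, it reached only 19.4 to 35.3. The tables were normalized separately, so values were not tested across them.

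Cxcl15 fell with rTIMP2 from day 7. HBSS lungs read 16657, 19709, 14190.0, 12717 and 13739.5 normalized counts and day 7 lungs 10423, 11462, 10514 and 10817. The 4 treated lungs are close together and below all 5 controls. Day 0 lungs read 7883, 9198, 11114, 12755 and 14339, which overlap the controls. The log2 fold change of Cxcl15 was -0.49 ± 0.11 for day 7 (adjusted p = 0.014, limma) and -0.49 ± 0.17 for day 0 (adjusted p = 0.087, limma). The type 2 cell markers summed to 355640.0 to 430364 in HBSS and 284223 to 321977 in day 7 lungs, also without overlap, and their part was not tested.

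Cxcl16 read 1262, 1566, 1391, 1224 and 1371 normalized counts in HBSS lungs and 1124, 1168, 1172 and 1080.3 in day 7 lungs. All treated values lie below all controls by a small margin. Its log2 fold change was -0.26 ± 0.072 (adjusted p = 0.035, limma). Ccl17 read 79.5, 74.7, 94.6, 54.5 and 73.5 in HBSS lungs and 31.3, 59.2, 43.7 and 45.4 in day 7 lungs, with overlap. The log2 fold change of Ccl17 was -0.75 ± 0.2 (adjusted p = 0.033, limma). The day 7 calls of Cxcl16 and Ccl17 were lost in 7 and 6 of 9 fits that left out a library, that of Cxcl15 in 0 of 9, and all 3 were lost in a fit with all 3 groups.

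Cxcr4 was the member called higher with rTIMP2 from day 0. HBSS lungs read 1026, 1162, 979.7, 1009.7 and 944 normalized counts and day 0 lungs 1631, 1209.5, 1075, 1225 and 1555. The groups overlap between replicate 2 of HBSS and replicate 3 of day 0. The log2 fold change of Cxcr4 was 0.37 ± 0.11 (adjusted p = 0.047, limma), and the call was lost in 8 of 10 fits that left out a library. Day 7 lungs read 1058, 1119.8, 1221 and 1512, a log2 difference of 0.25 ± 0.095 (adjusted p = 0.11, limma).

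Several leukocyte receptors had larger day 0 differences that did not pass. Ccr2 read 611, 419, 717, 433 and 449.9 normalized counts in HBSS and 2449, 691, 899, 1368 and 1840.0 in day 0 lungs. The lowest day 0 library is just below the highest control. The log2 difference of Ccr2 was 1.35 ± 0.36 (adjusted p = 0.055, limma). Cx3cr1, Ccr6 and Ccr3 had log2 differences of 1.19 ± 0.33, 1.08 ± 0.32 and 1.04 ± 0.38 (adjusted p = 0.062, 0.053 and 0.1, limma). Without day 0 replicate 2, Ccr2, Ccr6 and Cx3cr1 were called and Cxcr4 was not. For day 7, Ccr2 had a log2 difference of 0.96 ± 0.34 (adjusted p = 0.12, limma).

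Day 0 replicate 1 stood apart for the neutrophil and platelet members. Its Ppbp value was 4123 normalized counts and its Pf4 value 898. Ccr1 was also highest there, at 1200.4. Neutrophil markers summed to 49806 in this library, while the highest sum in the HBSS group was 7326. The platelet marker sum of this library was 5858. Leaving it out gave 0 member calls for day 0, as did leaving out HBSS replicate 4, HBSS replicate 5 or day 0 replicate 4.

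**Figure D5:**
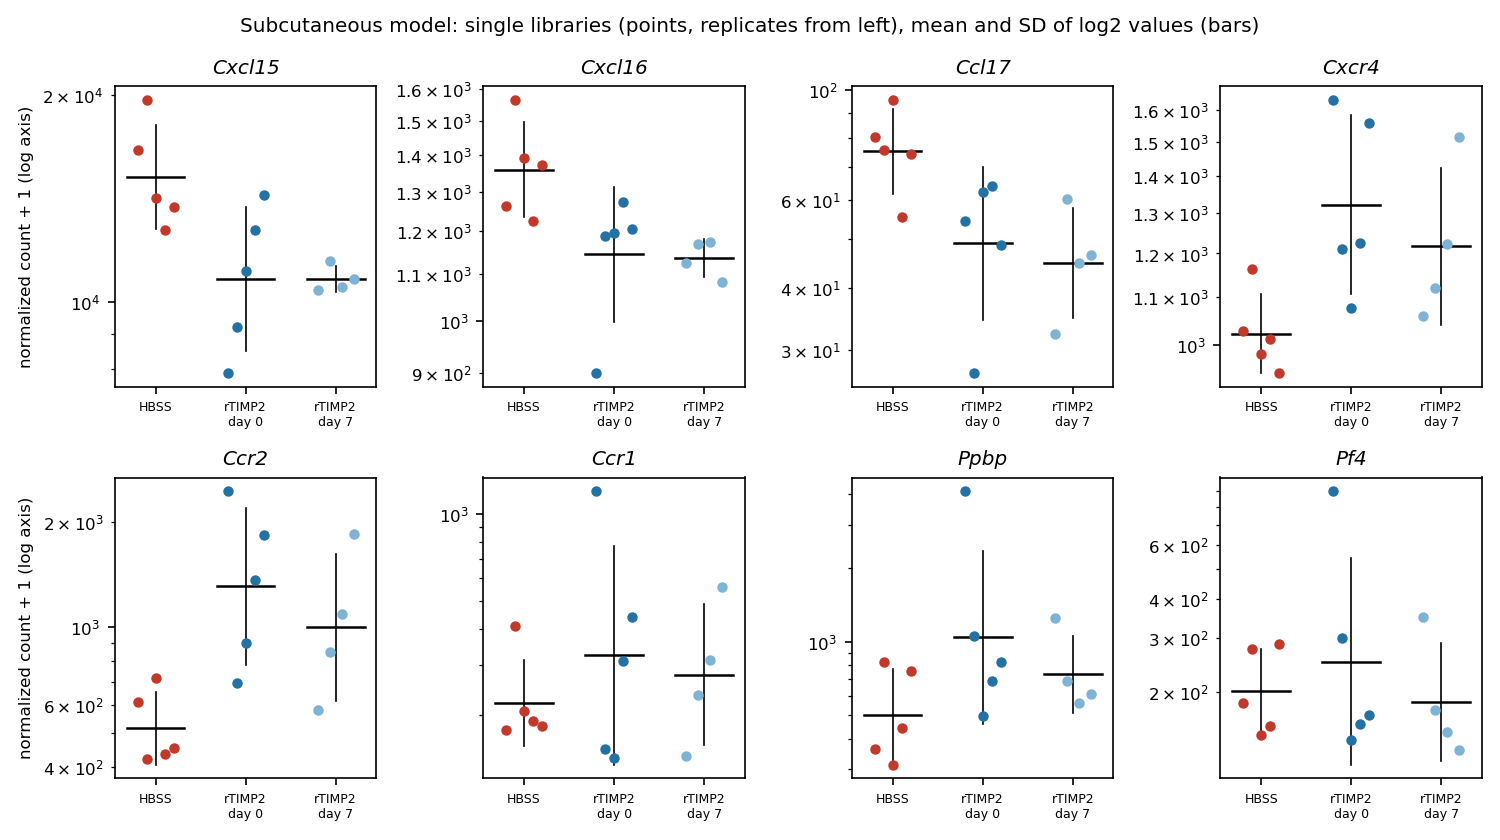
Points are libraries (replicates from left) of the 3 subcutaneous groups for 8 members, as normalized count + 1 on log axes, and bars give the mean and SD of the log2 values. The 4 day 7 points of Cxcl15 and of Cxcl16 lie below all 5 HBSS points, and day 0 replicate 1 is the highest point for Ccr2, Ccr1, Ppbp and Pf4.

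A further 53 genes of the pathway were followed as lists chosen beside the members: 7 other ligands, 8 other receptors, 4 other atypical receptors, 9 inducing cytokines, 10 transcription factors and regulators, 8 signalling genes and 7 processing enzymes. In WT tumour lungs, 9 of 40 tested were higher and 21 lower, and in MT2 8 of 42 were higher and 21 lower. Over all genes 70.5% and 67.4% were called, so these shares too lie near the background. Of the other ligands, Ccl25 rose (1.62 ± 0.24 in WT and 1.59 ± 0.22 in MT2 on the log2 scale) and Ccl21a, a Ccr7 ligand of lymphatic vessels, fell (-2.89 ± 0.58 and -4.26 ± 0.6). Ccl21a shares reads with near-identical copies and its own value is uncertain. Of the other receptors, Xcr1, on cross-presenting dendritic cells, fell (-1.90 ± 0.34 and -4.75 ± 0.59).

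Other atypical receptors fell beside Ackr2: Ackr4 changed by -3.34 ± 0.51 and -4.14 ± 0.4, and Ackr3, which takes up Cxcl12, by -0.68 ± 0.16 and -1.30 ± 0.4 on the log2 scale. Ackr1 was called higher in MT2 (1.86 ± 0.41) and was not tested in WT. Of the regulators, Nfkb2 rose (0.96 ± 0.13 and 0.66 ± 0.15), while Tnfaip3, an inhibitor of NF-κB signalling, fell (-1.09 ± 0.16 and -1.27 ± 0.35). Among signalling genes, Rgs1, which dampens G-protein signals, rose (1.56 ± 0.31 and 2.34 ± 0.45) and Arrb1, a beta-arrestin, fell (-2.60 ± 0.3 and -3.11 ± 0.23). Among the cytokines, Il1a was the 1 of 3 tested that passed, at -1.52 ± 0.22 and -2.14 ± 0.42.

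Among enzymes that cut chemokines, Mmp12 (2.95 ± 0.25 and 2.03 ± 0.41) and Mmp14 (2.32 ± 0.19 and 2.59 ± 0.24) rose. Dpp4, which trims and inactivates Cxcl12, fell (-3.12 ± 0.45 and -4.41 ± 0.51), as did Mmp2, a protease that TIMP2 inhibits (-2.94 ± 0.42 and -4.04 ± 0.32). With rTIMP2 in WT, 8 of 40 pathway genes tested were higher and 3 lower, the 3 being Nfkb2, Arrb2 and Mmp14, beside 27.3% of all genes called. Mmp14 changed by -2.19 ± 0.58 and Dpp4 by 2.50 ± 0.59 on the log2 scale. In MT2, 0 of 40 were called with rTIMP2. In the subcutaneous model, Ackr4 was higher and Ackr3 and Nfkbia lower with rTIMP2 from day 0 (0.68 ± 0.13, -0.35 ± 0.084 and -0.49 ± 0.096). From day 7, Ackr3 was lower (-0.29 ± 0.072) and Arrb1 higher (0.30 ± 0.073), of 43 tested in each comparison.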

How the data were processed

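RNA-seq of 44 lung samples was used, with 2 tables of 1 value per gene and library. The unit is a normalized signal that the authors deposited under the name of normalized counts. The submitters' processing notes name Bowtie2, DESeq2, Partek and STAR, with mm10. The sources used here do not give their roles, versions, the strand of counting or the handling of multi-mapping reads. Between 77.96 and 83.98% of values of up to 20 reads lay within 0.02 reads of a whole number, taking the commonest low value of a library as 1 read. That was too few to recover reads, so no count model was run.

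Groups came from the sample titles, since the treatment field of treated intratracheal mice counts upward through names such as Timp2. Replicate numbers only count mice. Deviations of same-numbered libraries did not run together in every pair of any comparison, so libraries were not paired. Whether samples of a group were prepared separately is not stated beyond their numbers, and p-values measure the spread between these samples.

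Each of 11 comparisons was tested on log2(value + 1) by limma (version 3.58.1, R version 4.3.3, with lmFit and eBayes, trend and robust), with the compared groups alone. Tested genes reached 10 in as many samples as the smallest group holds or in more, with Benjamini-Hochberg adjustment over all genes tested. On simulated data for the WT tumour comparison (16895 genes), 98% of 100 genes changed by 1 on the log2 scale and 100% of 100 changed by 2 were recovered, with 11 false calls. The simulation gave every gene in both groups the median spread of the tumour-free group and changed no other genes. In the real tumour lungs many genes spread wider and most were called, so these rates need not hold there. Alternatives were a pseudocount of 10, no filter, quantile normalization, all groups in 1 fit, a replicate block and leaving out each library.

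The members, roles, marker and pathway lists were chosen with earlier results of these data known. Members called without overlap and with a higher group averaging 50 or more are given with all samples in the tumour comparisons and in the treatment comparisons, and others by range and count. From the pathway lists, called genes with the largest changes are named, apart from some not reported here. Levels per kb use the exon union of GENCODE vM21. Promoter windows are from RefSeq, where 32 of 43 members matched.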

Additional observations from a re-analysis of the deposited data

Results flagged for a closer look

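Sets of 1 member in 1 group (mean of 50 or more) were searched for a library apart from the rest. In 42 of 207, the highest or lowest library stood apart from the other 4 (or 3) by Dixon's 95% critical value. Chance gives about 1 in 20 for independent values with a normal spread. These sets share libraries and were taken without a logarithm, so that rate need not hold here. All values are normalized counts. The largest share came from WT rTIMP2 replicate 4. This library was the highest of its group for Ccl2 (1298), Ccl7 (704), Ccl12 (205), Ccl9 (2268), Cxcl1 (218), Cxcl9 (833), Cxcl10 (406), Ccr1 (1085) and Ccr2 (1188). It was the lowest for Cxcl12 (668). Luciferase was also highest there, at 67.7. In the same group, replicate 3 stood apart for Ccl11 (209) and Cxcl13 (498).

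MT2 rTIMP2 replicate 2 was high for ligands of resting lung, with Cxcl12 at 3777, Cxcl14 at 1785, Cxcl15 at 11612 and Cx3cl1 at 862. Ppbp (594) and Ackr2 (551) were high there too. Luciferase was lowest in this library, at 0.983. Replicate 1 of this group stood apart for Ccl11 (101) and replicate 5 for Cxcl10 (333).

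MT2 HBSS replicate 3 was high for Ccl11 (271), Cxcl13 (192), Cxcl1 (1912), Cxcl2 (420.4) and Cxcl10 (2189). Replicate 4 stood apart for Cxcl12 (453), and replicate 5 for Ccl6 (5331) and Ccr2 (309). WT HBSS replicate 1 was high for Cxcl13 (441), Cxcl9 (743) and Ackr2 (353), and replicate 5 for Ccl11 (148). WT tumour-free replicate 4 was high for Ccl5 (257) and Ccr2 (739.9).

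In the subcutaneous model, rTIMP2 day 0 replicate 1 was high for Ppbp (4123), Pf4 (898) and Ccr1 (1200.4) and low for Cxcl16 (898). HBSS replicate 1 was high for Ccl11 (97.2), HBSS replicate 2 for Cx3cl1 (1222) and Ccr1 (406), and day 7 replicate 1 was low for Ackr2 (959).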

How the results depend on the processing

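No member called in a comparison changed direction under any alternative (of 1227 values, 1031 kept their side of the threshold and 196 lost it). Over all tested members and comparisons, called or not, 235 of 6564 values turned. Counts of members called kept within 1.5 times in both tumour comparisons under every alternative: 30 to 33 of the main 32 in WT and 30 to 31 of 30 in MT2 when a library was left out. For rTIMP2 from day 0 (main 1), a pseudocount of 10 gave 2, no filter 0, quantile normalization 2 and all groups in 1 fit 5. Leaving out a library gave 0 to 3. For rTIMP2 from day 7 (main 3), all groups in 1 fit gave 0, and leaving out a library gave 1 to 4. In WT, rTIMP2 against HBSS (main 16) ranged from 0 to 29. All groups in 1 fit gave 1 for MT2 against WT in HBSS tumour (main 0) and 7 for rTIMP2 in MT2 (main 0). For the comparisons with no call, leaving out a library gave 0 to 0. The cause was not tested.

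With the replicate number as a block, the counts were 0 for rTIMP2 from day 0, 1 for day 7 and 0 for rTIMP2 in WT, and the block moved no other count of members by over 1.5 times. The numbers share no animal. Same-numbered libraries correlated at -0.531 to -0.225 in the WT rTIMP2 comparison and at 0.0213 to 0.0826 in the MT2 tumour comparison, where 3 of 5 correlated best with their own number.

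Over all genes, rTIMP2 in WT called 4619, against 7773 with all groups in 1 fit and 0 with the block. It called 0 in 8 of 10 fits that left out a library. Rising from 0, all groups in 1 fit called 575 for rTIMP2 in MT2 and 119 for MT2 against WT in HBSS tumour. Day 0 called 1399 and 2298 with all groups, and day 7 called 1805 and 1087 with the block. Quantile normalization moved the median of all genes by 0.206 in the MT2 tumour comparison, 0.143 in the WT one and -0.118 for rTIMP2 in WT. At this depth, members under 10 normalized counts rest on a few reads. With no filter, Cxcl11 was called higher and Ccr8 lower in both tumour comparisons and Ccl19 lower in MT2. Quantile normalization added Ccl3, Ccl4 and Ccl24 to the higher calls in WT tumour and Ccl24, Cxcl13 and Cxcl9 in MT2.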
